A study of Mus musculus with 2 samples.

Results

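The histone genes of the aged mouse cortex were taken as all protein-coding genes of the GENCODE M21 annotation whose symbol begins with Hist, a digit and h, with H2af or with H3f3, or is H1f0 or H1fx. The rule found 80 of 55536 annotated genes, among 22015 nuclear protein-coding genes. They fall into 67 clustered genes (symbols beginning with Hist), which are known as replication-dependent, and 13 replacement genes (H1f0, H1fx, and the H2af and H3f3 symbols). The tissue was the left cerebral cortex of B6CASTF1/J males, a first-generation cross of a B6 and a CAST parent, aged 18 to 20 months, with no treatment named, and total RNA was measured. The series holds 1 group of 2 libraries, replicates 1 and 2, each made from 300 ng of RNA with an ERCC spike-in mix meant for stranded libraries reduced in ribosomal RNA. Both carry 1 donor identifier with separate biosample identifiers, and the labels do not name separate animals, so the spread between them may be technical. With no second condition there is no contrast to test, and p-values are not given.

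Histones are the proteins around which DNA is wound. An octamer of H2A, H2B, H3 and H4 forms the nucleosome core, and H1 binds the DNA that links cores. Clustered genes are mostly transcribed when DNA is replicated, and their messenger RNAs typically end in a short stem-loop in place of a poly(A) tail, which the protein Slbp binds. Some of them also give polyadenylated forms in cells that have left the cycle. Replacement genes are transcribed throughout the cycle and in resting cells such as neurons, give polyadenylated RNA, and supply variants such as H3.3 and H2A.Z that are inserted outside replication.

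Annotated genes summed to 22827996 expected counts in replicate 1 and to 29897545 in replicate 2. All 6 cortical excitatory neuron genes were detected at 1 TPM (a level corrected for transcript length and depth) or more in both libraries. So were all 5 inhibitory neuron, 8 oligodendrocyte, 4 oligodendrocyte precursor, 5 astrocyte, 4 microglia, 4 endothelial, 4 erythroid and 3 neuroblast genes. All 10 striatal projection neuron genes were detected too, as were 58.5% of nuclear protein-coding genes. Detection at this level thus cannot tell cortex from other brain tissue. Of 4 lymphocyte genes 1 was detected, and of 4 testis germ-line genes none. Marker levels of another region differed between the libraries. Genes of striatal projection neurons, which lie beneath the cortex, summed to 222 TPM in replicate 1 and 438 TPM in replicate 2, with all 10 higher in replicate 2. In bulk tissue, fewer cells of a type and less RNA per cell cannot be told apart.

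The stem-loop letters were searched in the GENCODE M21 transcripts, since they mark the kind of 3' end that separates the classes. The searched word of 16 bases is a stem of GGCN, a loop region CTTTTNAG and the returning stem NGCC, on the sense strand. It was found in 42 of 67 clustered genes (62.7%), in 1 of 13 replacement genes and in 45 of 22015 nuclear protein-coding genes (0.204%). The 2 further genes with a match were Trim17, whose annotated transcript runs through Hist3h2a, and H2bfm. The lines that follow give the match (capitals) with the bases beside it for the leading clustered genes of each family that have one, and for the replacement gene H2afx.
Hist1h4h: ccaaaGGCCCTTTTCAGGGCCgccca
Hist1h4m: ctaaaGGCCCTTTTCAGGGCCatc
Hist1h4d: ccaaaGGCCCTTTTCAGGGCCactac
Hist2h2aa2: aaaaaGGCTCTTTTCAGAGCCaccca
Hist3h2ba: ccaaaGGCTCTTTTCAGAGCCacctt
Hist1h3e: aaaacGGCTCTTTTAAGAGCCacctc
Hist1h1c: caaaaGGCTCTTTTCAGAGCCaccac
H2afx: acaaaGGCCCTTTTAAGGGCCaccac

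The annotation places these letters at very different points. In the 42 clustered genes the match ended a median of 469.5 bases from the transcript start. In 21 of the 42 more than 100 bases of annotated transcript followed it, and in Hist1h1d, a linker histone gene, 4884 did. Of the 25 clustered genes without a match, 18 have annotated transcripts under 500 bases. The clustered gene with the highest level, Hist1h4k, has an annotated transcript of only 312 bases and no match in it, and Hist2h2bb, at 381 bases, also has none. For these genes the absence of the word says only that the annotated sequence does not hold it. H2afx supplies H2A.X, the variant phosphorylated at DNA breaks, and is the replacement gene with the stem-loop letters, which end at base 562 of a transcript of 1384.

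The promoters of the classes also differ in their letters. RefSeq promoter sequences (GRCm38.p6, 250 bases before to 50 after each gene start) were matched for 74 of the 80 genes; Hist2h2be, Hist2h4, H2afx, Hist1h3f, Hist1h2bc and Hist1h3a were not matched. On either strand, TATAAA was found in 35 of 62 clustered promoters (56.5%) and 1 of 12 replacement promoters (8.33%), against 15.7% of 27025 genes in the table. CCAAT was found in 85.5% of clustered promoters, 75% of replacement promoters and 41.1% of all. It was in every matched H1, H2A, H2B and H3 promoter of the clustered class and in 3 of 12 H4 promoters (25%). The octamer ATTTGCAT, a site known from H2B promoters, was found in 7 of 16 clustered H2B promoters (43.8%), 7 of 18 clustered H2A promoters (38.9%), no other clustered family and 1.97% of all genes. Of the replacement promoters, 1 of 12 held it.

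H3f3b was the replacement gene with both TATAAA and the octamer. Its promoter is printed beside that of H3f3a, which encodes the same protein, and that of Hist2h2bb, the clustered H2B gene with the highest level, with the searched letters in capitals. The windows lie at chr11:116024455-116024754 (minus strand), chr1:180813556-180813855 (minus strand) and chr3:96269450-96269749 (plus strand), respectively.
H3f3b: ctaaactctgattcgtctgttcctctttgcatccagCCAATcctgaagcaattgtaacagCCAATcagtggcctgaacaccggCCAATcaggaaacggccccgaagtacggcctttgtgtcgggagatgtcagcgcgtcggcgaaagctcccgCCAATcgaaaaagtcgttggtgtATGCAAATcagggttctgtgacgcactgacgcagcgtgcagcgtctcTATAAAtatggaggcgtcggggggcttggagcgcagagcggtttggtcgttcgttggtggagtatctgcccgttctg
H3f3a: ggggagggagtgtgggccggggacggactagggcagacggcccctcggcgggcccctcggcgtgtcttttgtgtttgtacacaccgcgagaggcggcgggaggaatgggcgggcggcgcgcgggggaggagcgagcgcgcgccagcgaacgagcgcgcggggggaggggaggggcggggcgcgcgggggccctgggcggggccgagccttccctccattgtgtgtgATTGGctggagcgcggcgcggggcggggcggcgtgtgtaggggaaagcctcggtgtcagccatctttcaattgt
Hist2h2bb: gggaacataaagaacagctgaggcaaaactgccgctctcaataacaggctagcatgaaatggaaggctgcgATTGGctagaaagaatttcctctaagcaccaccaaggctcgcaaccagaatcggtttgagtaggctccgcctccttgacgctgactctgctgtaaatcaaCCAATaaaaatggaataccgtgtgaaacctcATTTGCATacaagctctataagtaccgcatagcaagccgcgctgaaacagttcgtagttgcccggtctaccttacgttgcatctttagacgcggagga

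Positions count from the RefSeq gene start. For H3f3b and H3f3a this lies inside the GENCODE M21 gene (chr11:116021912-116027962 and chr1:180800832-180813943), downstream of its outermost annotated start, and for Hist2h2bb the window ends just before the GENCODE gene (chr3:96269752-96270132). Counting the base before the RefSeq start as -1 and giving the first base of each match, H3f3b held TATAAA at -27, the octamer on the other strand at -74, and 4 CCAAT words between -214 and -97. H3f3a held 1 CCAAT word, on the other strand at -24, and neither of the other words. Hist2h2bb held the octamer at -48 and CCAAT words at -79 and, on the other strand, -179, and had no TATAAA. In none of the 3 windows did matches overlap.

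Detection at 1 TPM or more in both libraries was reached by 56 of 67 clustered genes (83.6%) and 10 of 13 replacement genes (76.9%), beside 58.5% of nuclear protein-coding genes. The median clustered gene stood at 8.68 TPM in replicate 1 and 8.47 TPM in replicate 2. The median replacement gene was higher, at 22.5 and 23.9 TPM, and the median nuclear protein-coding gene lower, at 3.88 and 3.54 TPM. All histone genes held 0.397% and 0.448% of the TPM of nuclear protein-coding genes.

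The H3.3 genes led the replacement class. H3f3a (chr1:180800832-180813943) was at 110.1 TPM in replicate 1 and 113 in replicate 2, and H3f3b was at 106 and 116 TPM. The order of these genes changed between the libraries, and their deposited intervals overlapped in both. In a second deposited quantification of the same libraries they were further apart, with H3f3a at 237 and 256 TPM and H3f3b at 152 and 164 TPM. H2afz, which encodes H2A.Z, a variant found around gene starts, followed at 73.6 and 84.3 TPM. H2afv, which encodes a second H2A.Z protein, was at 21.3 and 17.8 TPM. The macroH2A genes, whose products carry a large extra domain and are known from silent chromatin, differed in level: H2afy was at 47.6 and 44.7 TPM and H2afy2 at 10.2 and 8.21 TPM, the lowest of the 10 detected replacement genes.

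The linker histone gene H1f0, known for rising in cells that stop dividing, was at 31.3 and 34.2 TPM, and H1fx was at 24.2 and 23.9 TPM. H2afj was at 22.5 and 24.5 TPM and H2afx at 22.2 and 23.3 TPM. The H2afb1, H2afb2 and H2afb3 genes, which lie on chromosome X and encode short H2A variants known from testis, had 0 counts in both libraries. At these depths 0 counts allow up to 3 counts in a library. H2afb1 and H2afb3 have 15.7% of their windows of 100 bases in common.

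H4 genes took 3 of the leading places in the whole family in the first quantification, whose TPM is used unless the second is named. Hist1h4k was at 143 TPM in replicate 1 and 188 in replicate 2, Hist1h4h (chr13:23531050-23531519) at 162 and 143, and Hist1h4m at 122 and 132. The order of Hist1h4k and Hist1h4h was opposite in the libraries. All 13 H4 genes were detected, which no other clustered family reached: the counts were 5 of 6 for H1, 14 of 18 for H2A, 16 of 18 for H2B and 8 of 12 for H3. Further H4 genes were Hist1h4d (69.2 and 82.0 TPM), Hist1h4f (70.7 and 76.0), Hist1h4c (48.1 and 50.4), Hist1h4b (35.2 and 39.9), Hist1h4i (34.8 and 35.1) and Hist1h4a (27.2 and 31.8). In each of these the replicates differed less than the genes did from Hist1h4m. H4 has no replacement gene under the rule, and its genes are known to encode nearly identical proteins.

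Outside H4, the clustered genes with high levels came from each other family. Hist2h2aa2, an H2A gene of the chromosome 3 cluster, was at 82.2 and 105 TPM, and Hist2h2bb was at 86.2 and 92.5 TPM. Both lie in the small cluster at chr3:96219865-96270132, which holds 10 of the 67 clustered genes and 234 and 265 of their 1381 and 1500.2 summed TPM. Hist3h2ba (40.7 and 48.0 TPM) and Hist3h2a (27.1 and 27.4 TPM) are an H2B and an H2A gene that lie within 7.91 kb on chromosome 11. Hist1h2bg, another H2B gene, was at 25.1 and 26.5 TPM. The leading H3 genes of the class were Hist1h3i (31.1 and 28.1 TPM), Hist1h3h (23.8 and 24.9), Hist2h3b (22.4 and 22.3) and Hist1h3e (18.2 and 20.4). Each was below H3f3a and H3f3b in both libraries. The leading linker genes Hist1h1c (19.8 and 24.0 TPM) and Hist1h1e (21.6 and 21.2 TPM) had nearly equal levels.

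The remaining 47 clustered genes had mean levels of at most 19.2 TPM. In all, 26 clustered genes were at 10 TPM or more in both libraries, and 11 were not detected. The testis-known genes Hist1h1t, Hist1h2aa and Hist1h2ba had 0 expected counts in both libraries. The second quantification also gave 0 to Hist1h1t and Hist1h2aa but gave 21.5 counts to Hist1h2ba in replicate 2. Of the germ-line genes, Prm1, Prm2 and Tnp1 were also at 0, while Ddx4 had 27 and 43 counts (0.62 and 0.72 TPM), below the detection level.

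**Figure D1:**
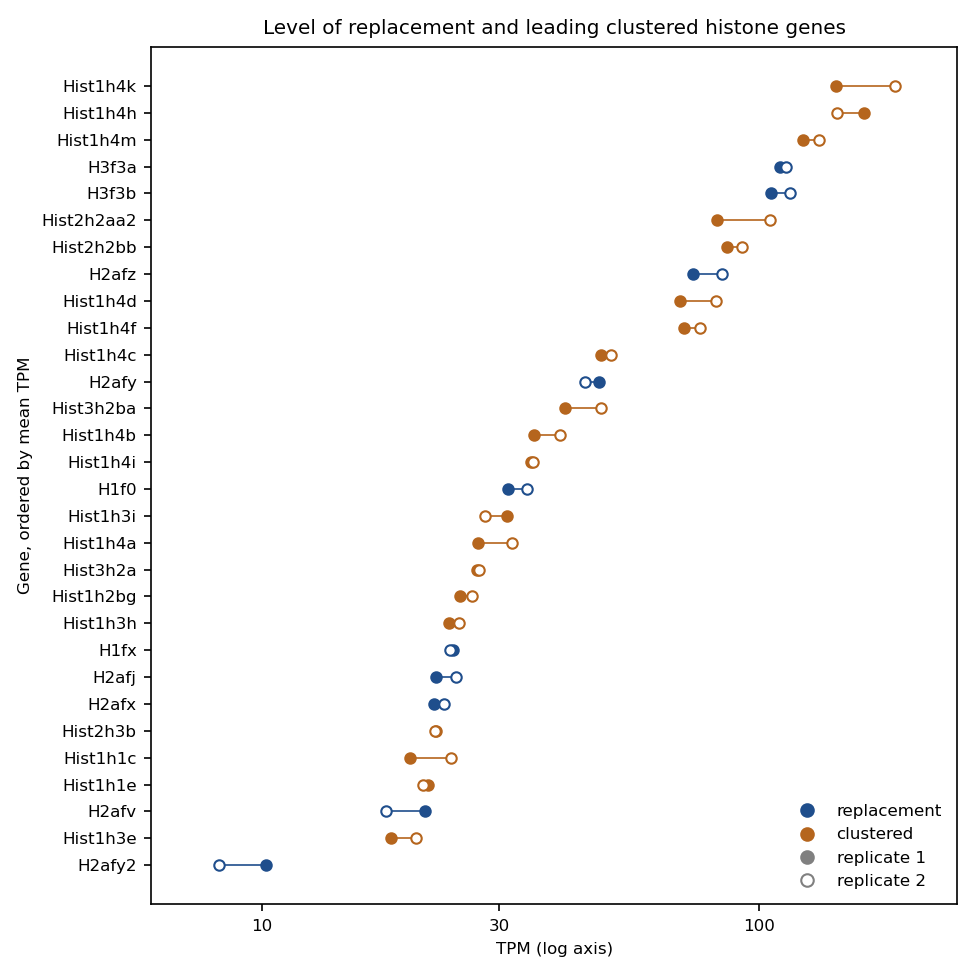
Level of the 10 detected replacement genes and the 20 clustered genes with the highest mean level, as TPM on a log axis; filled points are replicate 1, open points replicate 2, and a line joins the libraries of each gene. H3f3a and H3f3b sit between 106 and 116 TPM, among the leading H4 genes.

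Summed over genes, the clustered class held 1381 and 1500.2 TPM in replicates 1 and 2, and the replacement class 468 and 489.6 TPM. The replacement share of all histone TPM was 25.3% and 24.6% (25.0% ± 0.505, SD, n = 2). H4 and H2B, which have no replacement gene, are in that denominator, and without those families the share was 54.3% ± 0.704 (SD, n = 2). On expected counts, which are not divided by length, it was 42.4% ± 0.620 (SD, n = 2).

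Within families the 13 replacement genes held larger shares. In H3, the 2 replacement genes held 62.6% and 63.3% (63.0% ± 0.476, SD, n = 2) against 12 clustered genes. In H1 the replacement share was 50.2% and 48.8% (49.5% ± 1.01), and in H2A it was 49.4% and 47.3% (48.3% ± 1.5). The replacement share was thus above that of clustered genes in H3 in both libraries, to either side of equality in H1, and slightly below it in H2A in both libraries. H4 genes held 41.4% ± 0.631 of all histone TPM (SD, n = 2), H2A 21.6% ± 0.0245, H3 18.4% ± 0.322, H2B 12.7% ± 0.297 and H1 5.98% ± 0.0126. In the second quantification the order was another: H2A held 29.1% ± 0.381 (SD, n = 2), H4 27.2% ± 0.314, H3 26.1% ± 0.390, H2B 10.4% ± 0.385 and H1 7.18% ± 0.0788. The H4 share thus moved by over 1.5 times between the quantifications, and H2A, not H4, was the family with the highest share in the second.

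**Figure D2:**
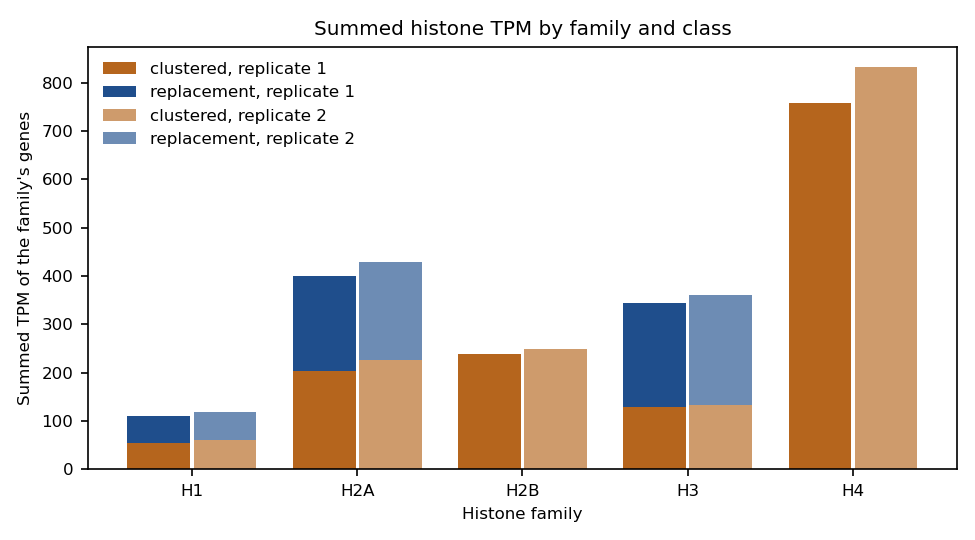
Summed TPM of each histone family in replicates 1 and 2, with clustered genes below and replacement genes stacked above. H4 reaches 757 and 832 TPM with no replacement part, while the H3 bars are mostly replacement.

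The length assigned to a clustered transcript bears on these shares. Lengths were cut at the stem-loop for genes with a match and a single annotated transcript, and the TPM was rescaled to the shorter length. Genes with several transcripts, such as Hist1h2be, were not cut. All reads were kept, also any past the stem-loop, so the rescaled levels may be too high. The clustered sum became 2101 and 2291 TPM and the replacement sum 508 and 531. The replacement share of all histone TPM was then 19.1% ± 0.458 (SD, n = 2). Within H1 it was 31.0% ± 0.675, with Hist1h1c at 46.7 and 56.5 TPM and Hist1h1e at 58.2 and 57.1 TPM. Within H3 it remained above that of clustered genes, at 57.5% ± 0.422. Where RNA of these genes ends was not measured by these tables.

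Of 10 pairs of histone genes compared within each library, 7 were called, meaning that the deposited TPM intervals did not overlap in either library and gave the same order. H2afz was above H2afv by 4.04-fold (log2 2.02 ± 0.32, SD, n = 2), and H2afy was above H2afy2 by 5.04-fold (log2 2.33 ± 0.16). H1f0 was above H1fx by 1.36-fold (log2 0.44 ± 0.10). H2afz was above H2afx by 3.47-fold (log2 1.79 ± 0.09), but with H2afx cut at its stem-loop the log2 ratio was 0.32. The intervals of H3f3b and H3f3a overlapped (log2 -0.02 ± 0.06, n = 2), but their log2 ratio was -0.64 in the second quantification and 0.40 on expected counts. Those of H2afj and H2afx also overlapped (log2 0.05 ± 0.04), with a log2 ratio of -1.43 with cut lengths and -0.75 in the second quantification. Those of Hist1h1c and Hist1h1e overlapped too (log2 0.03 ± 0.22).

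The other called pairs include clustered genes. H1f0 was above Hist1h1c by 1.5-fold (log2 0.58 ± 0.10, SD, n = 2), and with lengths cut at the stem-loop the order turned (log2 -0.65). Hist3h2a was below Hist3h2ba by 1.62-fold (log2 -0.70 ± 0.16), and the order turned both with cut lengths (log2 1.07) and on expected counts (log2 1.29). Hist1h2bc, at 13.0 and 12.8 TPM, was above Hist2h2be, at 2.03 and 2.30 TPM, by 5.97-fold (log2 2.58 ± 0.14), and on expected counts the log2 ratio was 1.32. These are H2B genes of the chromosome 13 and chromosome 3 clusters. Of the 67 clustered genes, 54 lie on chromosome 13, at chr13:21715763-23934851.

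Clustered genes are near copies of each other, and this limited how well a single gene could be read. A median of 34.2% of a clustered gene's windows of 100 bases, the read length that the deposited effective lengths imply, was found in another gene, and 25 of 67 had over 50% shared. Of the replacement genes none had over 50% shared, and the median was 0. The deposited intervals followed this. Their median width was 126% and 102% of the mean for the detected clustered genes with over 50% shared, 39.5% and 32.1% for the other detected clustered genes, and 18.5% and 15.7% for the replacement genes. Without members with over 50% of windows shared, the replacement share of H2A was 77.5% ± 1.52 (SD, n = 2). Only clustered genes are left out by that setting, so the replacement share could not fall, and the rise is not a result about replacement genes.

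Examples chosen after their values were seen show reads passing between copies. Hist2h2aa1 had 31.9 counts in replicate 1 and 0 in replicate 2, while its copy Hist2h2aa2 had 524 and 932. In the second quantification Hist2h2aa1 had 446 and 759 counts and Hist2h2aa2 had 0. Hist1h2ao was at 12.2 and 2.66 TPM while Hist1h2ap was at 0 and 11.9 TPM. The sum of that pair was 12.2 and 14.6 TPM, so the opposite changes of the single genes were nearly absent from their sum. Values of such copies are uncertain gene by gene, including the high level of Hist1h4m, 88.1% of whose windows were shared, and Hist2h2aa2, all of whose windows were.

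The second deposited quantification, with its own estimated counts per transcript, gave nearly the same totals for the replacement class and much lower ones for the clustered class. Its summed counts were 103% and 102% of those of the first for replacement genes, and 51.7% and 49.1% for clustered genes, beside 108% and 106% for nuclear protein-coding genes. For H4 they were 25.5% and 22.9%. Hist1h4d, of which no window was shared with another gene, had 1069 and 1764 counts in the first quantification and 5 and 13 in the second. Hist1h4k had 452 and 827 in the first, and 0 and 1 in the second. Hist1h4h, by contrast, had 895 and 1101 in the first and 641 and 1014 in the second.

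The difference varied with the distance from transcript start to stem-loop, here among genes averaging at least 10 counts. Where the match ended within 400 bases, the second quantification held 8.51% and 7.72% of the first's counts (7 genes). All 7 are H4 genes, so distance and family cannot be told apart there. For ends beyond 400 and up to 500 bases it held 50.8% and 50.4% (20 genes), and for ends over 500 bases 122% and 124% (11 genes). The copies Hist2h2aa1 and Hist2h2aa2, between which the tables pass their reads, fall on either side of 500 bases. Without both, in a setting chosen after seeing the data, the shares were 62.0% and 64.1% (19 genes) and 104% and 102% (10 genes). These are shares of summed counts, in which genes with many reads weigh most. The medians over single genes were 53.2% and 51.6% (19 genes) and 183% and 181% (10 genes). Single genes over 500 bases thus differed between the quantifications more than their sums did. In the 20 clustered genes without a match it held 41.6% and 32.7%, and in the 9 replacement genes without one 104% and 102%. The length columns of the second table imply fragments of 346 and 344 bases. Other nuclear protein-coding genes with transcripts under 400 bases had 47.0% and 48.2% of the first's counts (26 genes), and those of 400 to 600 bases 93.0% and 93.4% (172 genes). The part of transcript length in the difference was not tested. With the second quantification the replacement share of all histone TPM was 33.7% ± 0.862 (SD, n = 2), and that of H3 65.7% ± 0.0206.

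**Figure D3:**
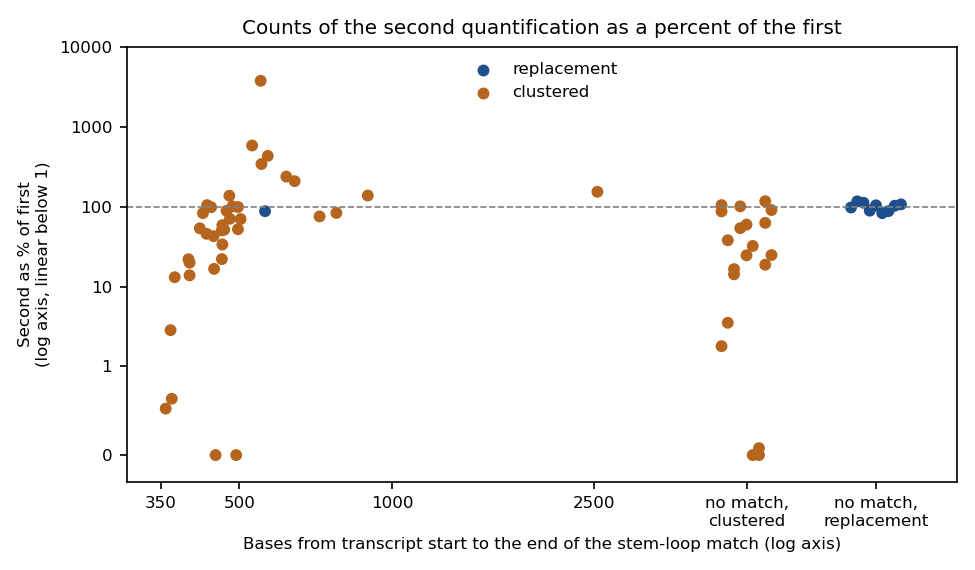
Counts of the second quantification as a percent of the first, over both libraries, for the 68 histone genes with a mean of at least 10 counts, against the bases from transcript start to the end of the stem-loop match (both axes log, the vertical linear below 1); genes without a match stand at the right. Replacement genes lie near 100% while clustered genes whose match ends within 400 bases lie far below.

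Of the 10 detected replacement genes, 6 have several annotated transcripts, and which one led was stable between libraries in 5 of them. H2afz-201 held 92.5% and 95.3% of the H2afz TPM (93.9% ± 1.94, SD, n = 2) and 96.2% in the second quantification. H3f3a-201 held 53.9% and 56.5% of H3f3a, with H3f3a-207 next at 28.0% and 31.5%. In the second quantification that order turned, with H3f3a-207 at 60.0% and H3f3a-201 at 31.7%. H3f3b divided between H3f3b-204, annotated as a processed transcript without a coding sequence, at 50% and 53.3%, and the coding H3f3b-201, at 40.1% in both. The second quantification gave H3f3b-201 no reads and gave 44.4% to another coding transcript, H3f3b-202, which held 0.57% in the first.

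H2afy gave H2afy-201 27.3% and 33.8% and the non-coding H2afy-204 25.1% and 27.3%. H2afj-202 led with 50.4% and 63.6% but held 11.0% in the second quantification. H2afv-202 held 45.2% and 57.7%, so the leading transcript of H2afv differed between the libraries. The same transcript led in both libraries and both quantifications in 2 of the 6 genes, H2afz and H2afy.

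Between the replicates, expected counts were compared after TMM scaling as the log2 ratio of replicate 2 to replicate 1, and a gene was called where the 95% exact interval of its counts excluded 0. Of the 68 histone genes that averaged at least 10 counts, 27 were higher in replicate 2 and 2 were lower, beside 24.3% higher and 12.7% lower among 14444 nuclear protein-coding genes. By class, 22 of 58 clustered genes were higher and 2 lower, and 5 of 10 replacement genes were higher and none lower. Median log2 ratios were 0.21 for clustered, 0.16 for replacement and 0.05 for nuclear protein-coding genes. With TMM scaling, H4 differed most by count, with 11 of 13 genes higher. Its log2 ratio of summed counts was 0.27 (95% exact interval 0.22 to 0.32). That ratio was not particular to H4: it was 0.27 (0.17 to 0.38) for clustered H1 and 0.25 (0.22 to 0.29) for all clustered genes. Lower bounds of the H4 genes called higher ran from 0.018 (Hist1h4b) to 0.36 (Hist1h4k). The log2 offset was 0.34 with TMM and 0.47 with spike-ins, so the calls with bounds near 0 depend on the scaling. With spike-in or deposited TPM scaling, 14 histone genes were higher and 4 lower.

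At an average of at least 100 counts, 24 of 41 histone genes were higher and 0 lower, beside 28.4% higher and 14.2% lower among 11646 nuclear protein-coding genes. The highest ratio was that of Hist2h2ac, an H2A gene, with 64.2 and 143 counts and a log2 ratio of 0.81 (95% exact interval 0.38 to 1.26). Hist1h4j followed with 69.0 and 138 counts and 0.65 (0.23 to 1.10), Hist4h4 with 168 and 325 counts and 0.61 (0.34 to 0.89), Hist1h4k with 0.53 (0.36 to 0.70) and Hist2h2aa2 with 0.49 (0.33 to 0.64). Of these 5, 3 are H4 genes, but so are Hist1h4c and Hist2h4 among the 5 lowest called ratios. In the second quantification Hist4h4 was within counting error (0.07). Hist1h4k had 0 and 1 counts there and Hist2h2aa2 had 0 in both libraries, so neither ratio could be repeated. Of their windows 64.3% and 100% were shared, which the counting intervals do not cover. The lowest ratios among the called genes were those of Hist3h2a (0.15), Hist1h4c (0.20), H2afx (0.20), H3f3a (0.22) and Hist2h4 (0.23). All 5 were within counting error under spike-in scaling, and Hist2h4 had the opposite sign in the second quantification (-0.93). The 2 lower genes, Hist1h2ao and Hist2h2aa1, are the copies described above.

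Short transcripts as a whole were higher in replicate 2. Other nuclear protein-coding genes of 400 to 600 bases had a median log2 ratio of 0.19, with 44.8% called higher, and those under 400 bases 0.21, while those of 2000 bases or more had 0.03. Clustered histone genes of 400 to 600 bases had a median of 0.13, with 26.9% of 26 called higher. In those of 600 to 1000 bases 50% of 10 were called higher, beside 25.6% of other nuclear protein-coding genes of that length. The median clustered gene is annotated at 528 bases and the median replacement gene at 1199. Markers of striatal neurons were also higher, with a median log2 ratio of 1.11. Higher too were 6 of 8 oligodendrocyte, 3 of 4 microglia, 3 of 4 endothelial, 3 of 5 astrocyte and 3 of 5 inhibitory neuron genes. Their median log2 ratios were far smaller, from 0.11 (astrocyte) to 0.25 (endothelial). Of cortical excitatory neuron genes 1 of 6 was higher and 3 lower, and 2 of 3 neuroblast genes were lower. The part of transcript length and of tissue content in the histone ratios was not tested.

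**Figure D4:**
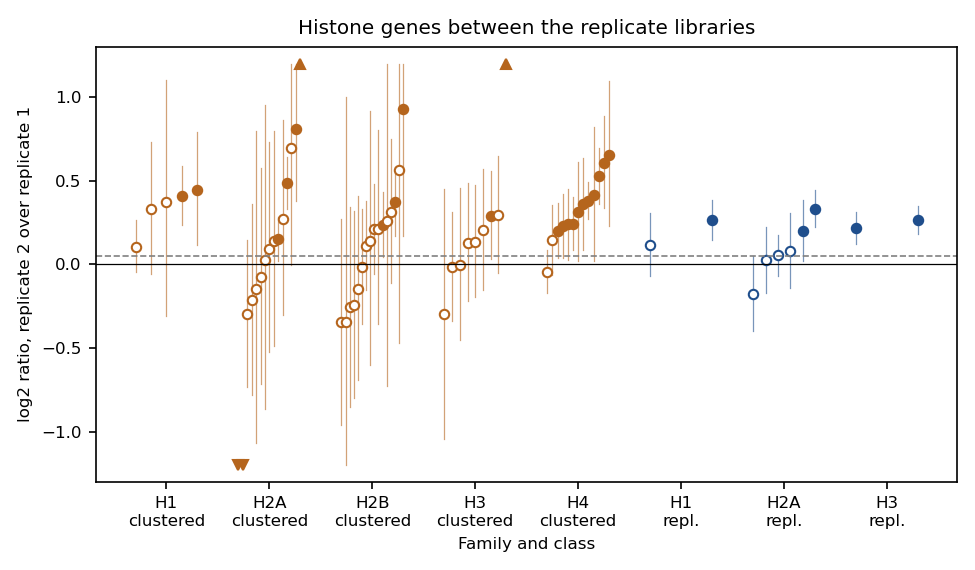
Log2 ratio of replicate 2 over replicate 1 for the 68 histone genes that averaged at least 10 counts, by family and class (repl., replacement); lines are 95% exact intervals, filled points are called, triangles are 4 genes beyond 1.2, and the dashed line is the median of nuclear protein-coding genes. With TMM scaling, 11 of the 13 H4 genes are filled and above 0.

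Genes that serve histone RNA and histone proteins were described from lists of fixed membership. Of 14 genes for 3' processing and transcription of clustered histone genes, 13 were detected, with medians of 11.3 TPM in both libraries, beside 3.88 and 3.54 TPM over nuclear protein-coding genes. Slbp, which binds the stem-loop, was at 12.2 and 11.2 TPM. Lsm11 and Lsm10, which belong to the U7 particle that directs the cut after the stem-loop, were at 9.96 and 8.53 TPM and at 6.31 and 5.25 TPM. Npat, which activates clustered histone genes, was at 8.66 and 9.46 TPM. Cstf2, a subunit of a cleavage factor, was highest at 59.5 and 54.6 TPM. The gene below detection was Zfp473, another U7-linked factor, at 0.22 and 0.10 TPM. In this list 1 gene was higher and 1 lower in replicate 2.

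All 16 genes for chaperones and remodellers of replacement histones were detected, with medians of 26.6 and 21.5 TPM. Atrx, which with Daxx places H3.3 in repeats and telomeres, was highest at 83.2 and 62.7 TPM, and Daxx was at 12.4 and 14.9 TPM. Hira, the H3.3 chaperone of active genes, was at 38.2 and 33.8 TPM. Srcap, which exchanges H2A for H2A.Z, was at 54.4 and 40.8 TPM, and Anp32e, which removes H2A.Z, at 46.3 and 40.9 TPM. Ino80 was lowest at 9.90 and 9.29 TPM. Between the libraries 6 of these genes were lower in replicate 2 and 1, Daxx, was higher, beside 12.7% lower and 24.3% higher among nuclear protein-coding genes.

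Genes for DNA replication and replication-coupled assembly were low by comparison. Of 16, 9 were detected, with medians of 1.58 and 1.5 TPM. Pcna, the replication clamp, was highest at 20.0 and 20.7 TPM, and Cdc6, which licenses origins, was lowest at 0.23 and 0.14 TPM. The subunits of the replication-coupled histone chaperone, Chaf1a (0.60 and 1.17 TPM) and Chaf1b (0.32 and 0.16 TPM), were not detected in both libraries. Of 10 mitosis and proliferation genes only Ccne2 was detected, at 2.56 and 1.97 TPM. Mki67 was at 0.27 and 0.13 TPM and Cdk1 at 0 and 0.04 TPM. On the same per-length scale, 26 clustered histone genes were at 10 TPM or more in both libraries of the first quantification. Every gene of these 2 lists except Pcna was below 10 TPM, so its place under the 26 follows from the cut that chose them. The median clustered gene, at 8.68 and 8.47 TPM, was below Mcm7 in replicate 1 and above it in replicate 2 (9.09 and 6.74 TPM). In the second quantification Hist1h4h, of the 26, stayed high (373 and 448 TPM). Others were far lower, such as Hist1h4k (0 and 0.96 TPM) and Hist1h4d (0.53 and 1.04 TPM). The 2 lists were not compared there, and several of the 26 are near copies whose single values are uncertain. In replicate 2, 6 of 12 tested replication genes were higher and none lower, beside 24.3% higher and 12.7% lower among nuclear protein-coding genes. Lower bounds of these 6 log2 ratios ran from 0.0008 (Mcm6) to 0.21 (Mcm4) with TMM scaling, so the count depends on the scaling.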

How the data were processed

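Each of the 2 libraries had 3 deposited tables, per the deposited file lists made on mm10 with GENCODE M21. Per the file headers, the gene table and 1 transcript table are laid out as by RSEM and the other (the second quantification) as by kallisto. Aligner, versions, settings and strand use were not given in the sources used here. Deposited expected counts (estimated counts in the second table) are unnormalized estimates of reads per feature. The deposited TPM and posterior mean TPM are per length, scaled to a fixed total in each library, and the deposited intervals are of unstated level. Each transcript's percent of its gene's TPM is a deposited column.

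TPM was used for levels. Between libraries, expected counts were rounded, 0.5 was added, and TMM factors of edgeR 4.0.16 (R 4.3.3) set the scale (log2 offset 0.34); DESeq2 1.42.0 size factors were an alternative. Intervals are 95% Clopper-Pearson intervals and, like the limit of 3 counts for a count of 0, cover counting error only, since reads are not independent molecules. The interval calculation was tested on simulated data. Genes averaging at least 10 counts were compared. CAST variants may lower counts made on the reference genome by an amount not measured. Rows of tRNA and spike-in entries were left out of gene totals.

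Members and lists were chosen with earlier results of these data known. Named were every replacement gene, the 20 clustered genes with the highest mean TPM, members of the fixed pairs, 3 testis genes, and between libraries the 5 highest and 5 lowest called ratios at an average of at least 100 counts. No protein sequences were used here. Overlapping genes, such as Hist1h1e and Hist1h2be, or Hist2h2aa1 and Gm20634, could exchange reads and are uncertain.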

Additional observations from a re-analysis of the deposited data

How the results depend on the processing

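No paired analysis was possible because the 2 libraries form 1 group. Settings with lengths cut at the stem-loop, without H2B and H4, without members sharing over 50% of windows or without Hist2h2aa1 and Hist2h2aa2, and the family shares in the second quantification, were chosen after seeing the data. Detection kept within 1.5 times of its count under each setting tried (50 to 60 clustered, 10 replacement genes). The replacement share of all histone TPM (25.0%) was 33.7% in the second quantification, 42.4% on expected counts, 23.8% with H2afx among clustered genes, 54.3% without H2B and H4, 19.1% with cut lengths and 36.0% without members that share windows; leaving out either library gave 24.6% to 25.3%. In the same order where run, the H1 share (49.5%) was 52.0%, 50.7% and, with cut lengths, 31.0% (48.8% to 50.2% leaving out a library); the H2A share (48.3%) was 44.1%, 63.6%, 41.2% with cut lengths and 77.5% without shared members (47.3% to 49.4%); the H3 share (63.0%) was 65.7%, 78.7%, 57.5% and 81.7% (62.6% to 63.3%). Leaving out members that share windows removed clustered genes only, so no replacement share could fall in that setting. Posterior means moved none of the 4 shares by more than 1 SD. Histone genes higher in replicate 2 (27) numbered 14 with spike-in and 14 with deposited TPM scaling, which moved the median log2 ratio of nuclear protein-coding genes from 0.05 to -0.07 (spike-ins); they numbered 18 with total-count scaling, 18 with scaling on protein-coding genes and 19 in the second quantification; lower genes (2) numbered 4 with either, 0 at a mean count of 50 or more and 0 without shared members. The order turned for Hist3h2a over Hist3h2ba on expected counts (log2 1.29) and with cut lengths (1.07), both of which change how length is treated, for H1f0 over Hist1h1c with cut lengths (-0.65), and for Hist2h4 between libraries in the second quantification (-0.93), where the cause was not tested. The 7 pair calls hold in either library alone by definition, since a call required both libraries.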

Other observations

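Clustered genes often stand head to head, sharing the stretch between their starts. Among the 80 histone genes, 13 pairs had opposite directions and starts within 1000 bases, with a median of 268 bases between starts, and 12 of the 13 join an H2A and an H2B gene. Over the 12 pairs with both levels above 0 (Hist1h2ba and Hist1h2aa were at 0), levels differed by a median of 1.23 on the log2 scale, and in 5 pairs by more than 4-fold. Hist1h2ae was at 2.02 TPM in the mean while Hist1h2bg, whose start lies 176 bases away, was at 25.8 TPM. In the second quantification these were nearer, with Hist1h2ae at 17.0 and 13.1 TPM and Hist1h2bg at 22.4 and 20.6 TPM. Hist1h2ac was at 1.05 TPM and Hist1h2bc, 251 bases away, at 12.9 TPM, beside 1.17 and 1.47 TPM and 21.6 and 18.2 TPM in the second quantification. These pairs were chosen for naming after their values were seen, and Hist1h2ac is annotated over 2482 bases, so its level per length also depends on that annotation.

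The symbol rule also matched 9 non-coding genes, which were left out. Hist1h2al, annotated as a processed pseudogene, was at 19.3 and 19.5 TPM, H3f3c at 9.28 and 7.89 TPM and Hist3h2bb-ps at 6.56 and 6.37 TPM. The antisense gene H3f3aos, which overlaps H3f3a, was at 0.60 and 0.41 TPM, and strand use in counting was not given in the sources used here.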
